A study of Mus musculus with 8 samples.

Results

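Interferon-stimulated genes are described here in mouse pancreatic ductal adenocarcinoma cells with and without C1galt1c1. The 34 genes were taken by name from a list of well-known interferon targets, and all 34 were found among the 49315 gene identifiers of the expression table. Polyadenylated RNA was sequenced from 4 tumour cell lines, 6694c2, 6419c5, 2838c3 and 6499c4, each once as a C1galt1c1-KO culture and once as its WT parent, which gives 4 KO and 4 WT libraries. C1galt1c1, also called Cosmc, encodes the chaperone of the enzyme that extends O-linked sugars, and KO cells keep the short Tn antigen. No interferon or other agent is named in the labels for any culture, all 8 were grown in the same serum-containing medium, and each KO line is 1 culture whose clonal state is not given. The lines 6694c2 and 6419c5 are called T-cell-poor and 2838c3 and 6499c4 T-cell-rich here. These names refer to the tumours the lines are known to form in mice, do not stand in the labels, and were not measured in these cultures.

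Type I interferons bind a receptor made of IFNAR1 and IFNAR2, and the kinases JAK1 and TYK2 then phosphorylate STAT proteins. The factor ISGF3, which holds STAT2 and IRF9, binds the interferon-stimulated response element (ISRE) in the promoters of its targets. The targets include antiviral effectors, sensors of viral RNA and the factors of the pathway itself, and many cells carry a low tonic level of them without added interferon. In tumours, this programme has been studied for its ties to immune recognition and to resistance to therapy.

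The promoter matches are shown first because many of the members share the ISRE. The list was chosen as known interferon targets, so more matches than in other promoters were likely from that choice. Windows from 250 bases before to 50 bases after the annotated start of each gene (GENCODE M39, build GRCm39) were searched on both strands for the ISRE letters, GAAA, then any 2 bases, then GAAA again. A match was present in 16 of 34 members (47.1%), against 835 of 21770 protein-coding promoters (3.84%). The interferon-gamma element TTCNNNGAA was present in 5 of 34 members (14.7%), against 1919 of 21770 promoters (8.81%). A match is a run of letters and was not tested for binding. The windows below stand 5′ to 3′ on the strand of each gene, with ISRE matches in capitals, which read TTTC, 2 bases and TTTC where the match is on the other strand. They are some of the members whose matches lie wholly before the start, and not all of them differed in the comparisons below.
Isg15: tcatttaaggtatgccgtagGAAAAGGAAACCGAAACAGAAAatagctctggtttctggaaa
Ifit1: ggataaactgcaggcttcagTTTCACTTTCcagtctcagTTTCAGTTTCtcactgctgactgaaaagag
Ifit3: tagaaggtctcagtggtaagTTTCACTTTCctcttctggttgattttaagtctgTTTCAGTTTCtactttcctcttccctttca
Ifit3b: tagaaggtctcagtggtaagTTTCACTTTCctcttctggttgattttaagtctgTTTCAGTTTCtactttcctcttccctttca
Oas3: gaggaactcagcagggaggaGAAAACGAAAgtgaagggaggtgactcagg
Stat2: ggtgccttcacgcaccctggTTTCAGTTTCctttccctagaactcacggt
Usp18: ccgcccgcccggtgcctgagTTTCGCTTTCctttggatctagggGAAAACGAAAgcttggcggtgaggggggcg
Bst2: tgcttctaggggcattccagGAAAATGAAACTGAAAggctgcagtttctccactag

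The Isg15 window is chr4:156285312-156285373 on the minus strand and holds 3 overlapping matches, the first of them 50 bases before the start. Ifit1 (chr19:34618165-34618233, plus strand) has matches 86 and 67 bases before its start. The Ifit3 window (chr19:34560753-34560836, plus strand) and the Ifit3b window (chr19:34585149-34585232, plus strand) are letter for letter the same, and their matches begin 126 and 159 bases before the starts. Oas3 (chr5:120915770-120915819, minus strand), Stat2 (chr10:128106125-128106174, plus strand), Usp18 (chr6:121222762-121222835, plus strand) and Bst2 (chr8:71990211-71990266, minus strand) begin their matches 70, 207, 75 and 132 bases before the start. All these windows lie before the annotated start, outside the exons of the gene. The other members with a match were Oas1a, Oas1g, Oas2, Rsad2, Rigi, Ifih1, Dhx58 and Gbp2. Windows of Irf7, Irf9, Irf1, Isg20, Oasl1, Oasl2, Xaf1, Ifi27l2a, Ifi35, Ifit2, Parp9, Parp14 and Dtx3l held no run of these letters. The same was true of Mx1, Mx2, Cmpk2, Ifi44 and Gbp3, and it says nothing of binding elsewhere.

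**Figure D1:**
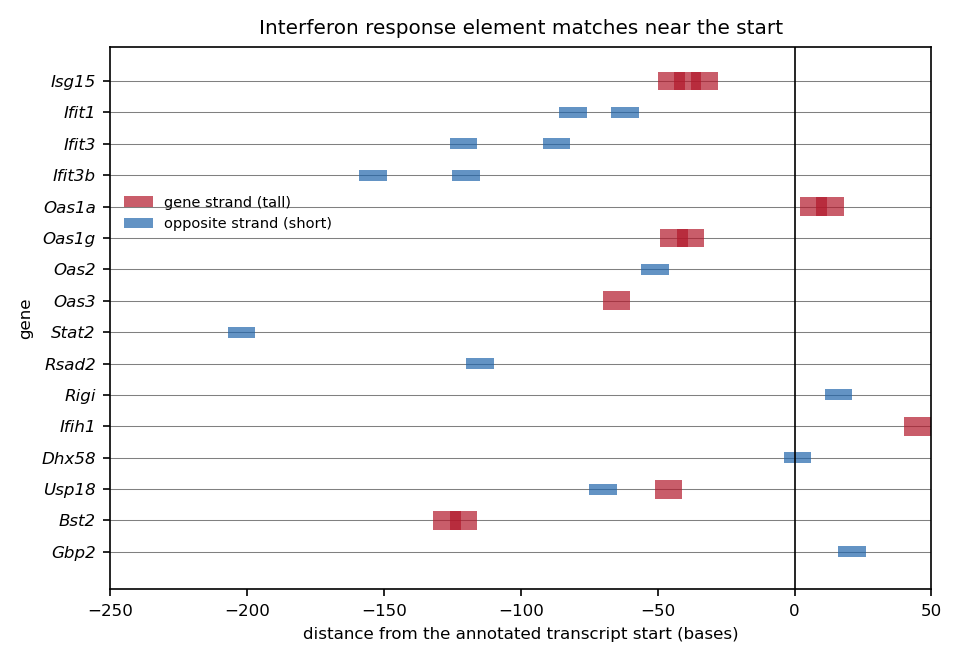
Positions of ISRE matches (bars 10 bases wide) from 250 bases before to 50 bases after the annotated start, in bases, for the 16 members that hold one. Tall red bars are matches on the gene strand and short blue bars matches on the other strand; matches of Oas1a, Rigi, Ifih1 and Gbp2 lie after the start.

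The libraries and the labels were examined before any comparison. C1galt1c1 was at 10.9, 16.1, 15.3 and 19.0 TPM in the KO libraries of 6694c2, 6419c5, 2838c3 and 6499c4, and at 37.0, 37.9, 40.4 and 54.2 TPM in the WT libraries, which is 29.5% to 42.4% of WT. TPM are transcript shares scaled by gene length that sum to 1000000 per library, so they keep no read depth. Gene identifiers without a name, whose class the annotation does not give, took 12.5% and 9.69% of the TPM in the KO libraries of 6694c2 and 6419c5 and 0.713% to 1.33% in the 6 others. Ductal keratins and other epithelial markers summed to at least 13359 TPM in every library, and all 7 reached 1 TPM. Of 9 immune markers only Cd68 reached 1 TPM, none of 4 dendritic cell markers and none of 5 endothelial markers did, and the natural killer cell marker Ncr1 was listed at 0. Of 7 fibroblast markers 3 reached 1 TPM, with a marker sum of at most 10.6 TPM, and the acinar gene Cela1 reached 44.4 TPM. In bulk RNA, fewer cells with a transcript and less transcript per cell cannot be told apart.

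Members differed among the lines, while none passed the test between genotypes. In 6419c5, 27 members reached 1 TPM in the KO library and 29 in the WT library. The KO and WT libraries had 21 and 20 such members in 6499c4, 13 and 21 in 6694c2, and 13 and 14 in 2838c3. The line 6419c5 had the highest mean for 29 of 34 members (85.3%), against 32.1% of the 12900 genes kept for testing, and 6499c4 came second for 18 of 34, against 25.6% of genes kept. The line 6694c2 was lowest for 12 members (35.3%), against 34.8% of genes kept, and 6499c4 for 9 (26.5%), against 26.5%. Both were near the share of genes kept, but not near that of all genes with any TPM. Of all genes with any TPM, 25.5% were lowest in 6694c2 and 36.6% in 6499c4. The line 2838c3 was lowest for 12 members, against 16.4% of genes kept and 20.7% of all genes with any TPM. Both 6419c5 libraries lay above the 6 others for 25 of 34 members, where 11.9% of all genes with any TPM did so. Those 25 members take in sensors, ubiquitin-like modifiers, IFIT, OAS and PARP family genes. Both 2838c3 libraries lay below the 6 others for 6 members (3.59% of genes), Isg15, Oasl1, Oasl2, Irf7, Usp18 and Gbp3, and both 6694c2 libraries for 5 members (7.41% of genes), Irf1, Ifih1, Dhx58, Cmpk2 and Bst2. Ifit3 alone was lowest in both 6499c4 libraries (5.75% of genes), and Mx1 alone was highest in both 6694c2 libraries (4.1% of genes). No member had both libraries of 2838c3 (4.93% of genes) or of 6499c4 (5.88%) above the 6 others, and none had those of 6419c5 below them (4.05%).

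**Figure D2:**
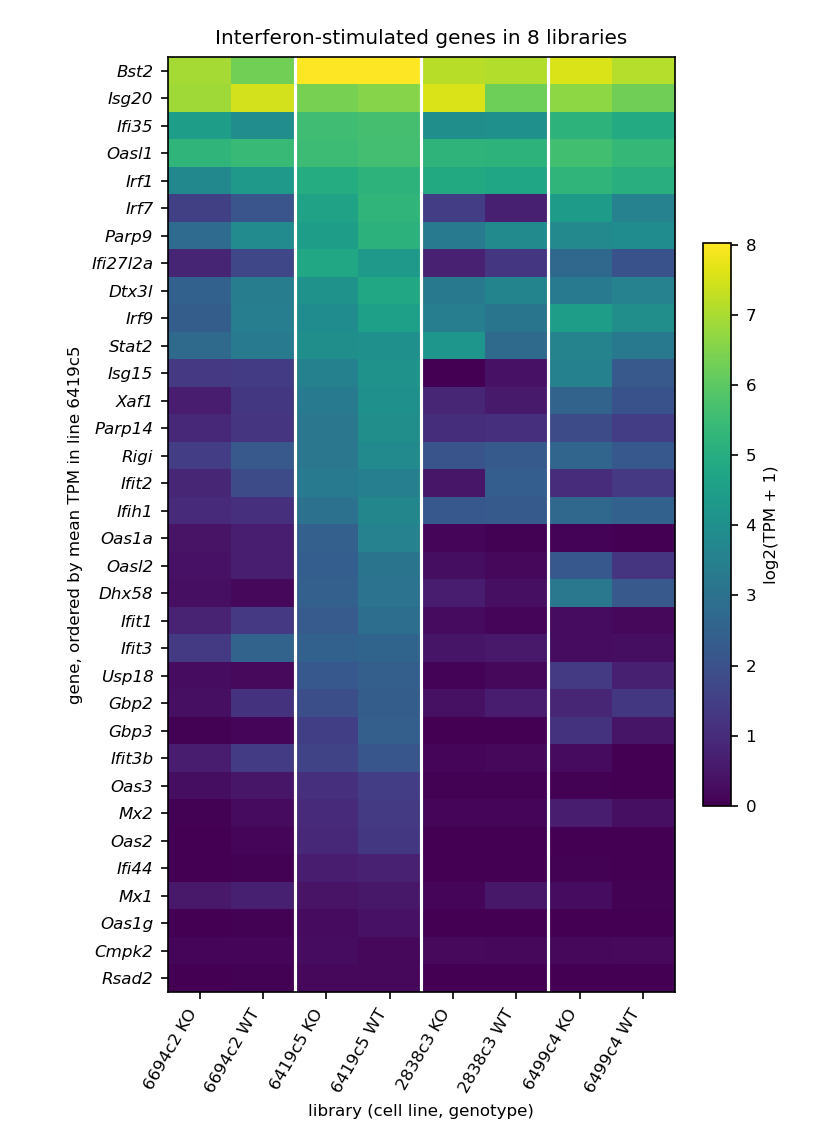
Level of each of the 34 members as log2(TPM + 1) (colour) in the 8 libraries, KO left of WT within each line and lines parted by white bars. Rows are ordered by the mean TPM in 6419c5, the line with the highest mean for 29 of 34 members.

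Genes with at least 1 TPM in at least 4 of 8 libraries were tested, and 21 of 34 members passed this filter. The 13 others reached 1 TPM in fewer libraries and are given by their levels. Ifit3, Dhx58, Oasl2 and Gbp2 reached 1 TPM in exactly 4 libraries. These were both of 6694c2 and 6419c5 for Ifit3 and both of 6419c5 and 6499c4 for Dhx58 and Oasl2. For Gbp2 they were both of 6419c5 and the WT libraries of 6694c2 and 6499c4, so its KO and line differences lean on the filter. Ifit3, Dhx58 and Oasl2 passed only through the lines where they were high, so they had to differ between lines. Xaf1 reached 1 TPM in 5 libraries, both of 6419c5 and 6499c4 and the WT library of 6694c2. The lines where it was high thus carried it past the filter. The line calls of all these genes, Gbp2 and Xaf1 among them, are counted here with no p given as support. A limma F-test on the line terms, with genotype in the model and Benjamini-Hochberg adjustment over 12900 genes, called 2178 genes at an adjusted p under 0.05 (16.9%) and 15 of the 21 members tested. The test uses the KO and WT library of a line as its 2 libraries, and the labels name no repeated culture. The call of many members rests on 6419c5. Without that line 4 of the 21 members tested were called, Dhx58, Irf7, Isg15 and Ifih1, with 7.0% of all genes. Leaving out 6499c4 gave 10 members with 6.75% of all genes, leaving out 6694c2 gave 11 with 11.4%, and leaving out 2838c3 gave 17 with 28.7%. Without 6694c2 and 6419c5 together, 4 members were called with 7.32% of all genes. With no filter on low values, 9 of the 15 calls were lost (Isg15, Ifih1, Ifit3, Oasl2, Dtx3l, Gbp2, Bst2, Parp9 and Ifit2). Median-ratio scaling ended the call of Bst2 and a pseudocount of 0.1 that of Ifit2, and with structural RNA (taken as the unnamed identifiers and the small RNA classes) removed Rigi and Irf1 were called as well.

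The transcription factors of the pathway did not share 1 pattern. In the sentences on levels that follow, the 4 values of a genotype are those of 6694c2, 6419c5, 2838c3 and 6499c4, in that order. Irf7 (ENSMUSG00000025498, chr7:140842619-140846398, minus strand), the factor that amplifies type I interferon production, was at 1.90, 23.5, 1.74 and 20.8 TPM in KO libraries and at 3.36, 36.7, 0.621 and 10.8 TPM in WT libraries. It was high in 6419c5 and 6499c4 and low in the other lines in both genotypes, with no overlap between these pairs of lines (adjusted p = 0.00483, limma F-test over 4 lines). Irf9, the DNA-binding part of ISGF3, was at 4.19, 14.0, 9.77 and 21.7 TPM in KO libraries and at 9.83, 22.2, 7.68 and 14.8 TPM in WT libraries. Its values were highest in the same lines as those of Irf7, but the F-test did not call it (adjusted p = 0.104, limma). Stat2, its partner in ISGF3, was at 5.86, 15.1, 17.6 and 11.2 TPM in KO libraries and at 8.99, 15.3, 5.88 and 8.57 TPM in WT libraries, with no call (adjusted p = 0.384, limma). Irf1, a factor that also answers interferon-gamma, was at 12.3, 30.5, 28.4 and 37.5 TPM in KO libraries and at 19.0, 35.2, 26.0 and 32.7 TPM in WT libraries. Both 6694c2 libraries were the lowest, and the adjusted p was 0.0547 (limma F-test). Exons of 3 antisense transcripts overlap those of Irf1, the largest over 31.4% of its exon bases, and whether counting used the strand was not given in the sources used here.

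The sensors of viral RNA were high in 6419c5. Dhx58 (LGP2), a regulator of RIG-I-like receptors, was at 0.243, 4.50, 0.574 and 8.34 TPM in KO libraries and at 0.116, 7.34, 0.247 and 3.73 TPM in WT libraries. Ifih1 (MDA5), a receptor of long double-stranded RNA, was at 0.986, 7.10, 3.63 and 5.56 TPM in KO libraries and at 1.14, 11.8, 3.82 and 4.64 TPM in WT libraries (adjusted p = 0.00997, limma F-test). Dhx58 had its highest value in the 6499c4 KO library, while Ifih1 separated 6419c5 from all other lines and 6694c2 below them. Rigi, the receptor RIG-I, ranged from 1.74 TPM in 6694c2 KO to 13.3 TPM in 6419c5 WT and was not called (adjusted p = 0.0524, limma F-test).

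Effector genes spanned wide ranges between lines. Isg15 (ENSMUSG00000035692, chr4:156283883-156285303, minus strand), a ubiquitin-like modifier, was at 1.52, 10.6, 0 and 10.5 TPM in KO libraries and at 1.61, 16.1, 0.321 and 3.77 TPM in WT libraries (adjusted p = 0.0085, limma F-test). It was listed at 0 in the 2838c3 KO library, and exons of an antisense transcript overlap 31.1% of its exon bases. Ifi27l2a, a small interferon-induced membrane protein, was at 0.764, 27.0, 0.677 and 5.49 TPM in KO libraries and at 2.29, 19.4, 1.40 and 3.08 TPM in WT libraries (adjusted p = 0.00598, limma F-test). Both 6419c5 libraries were above every other library for Ifi27l2a, and its exons overlap those of Ifi27 on the opposite strand over 15.0% of its exon bases. Usp18, the protease that removes ISG15 and restrains the receptor, did not pass the filter and reached 3.63 and 4.43 TPM in the KO and WT libraries of 6419c5, against 0.0561 to 1.58 TPM in the 6 others. Xaf1, a binder of the apoptosis inhibitor XIAP, was at 0.547, 9.03, 0.802 and 4.90 TPM in KO libraries and at 1.47, 15.2, 0.4997 and 3.04 TPM in WT libraries. Its order of lines, 6419c5 above 6499c4 above the other lines, was that of Irf7.

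**Figure D3:**
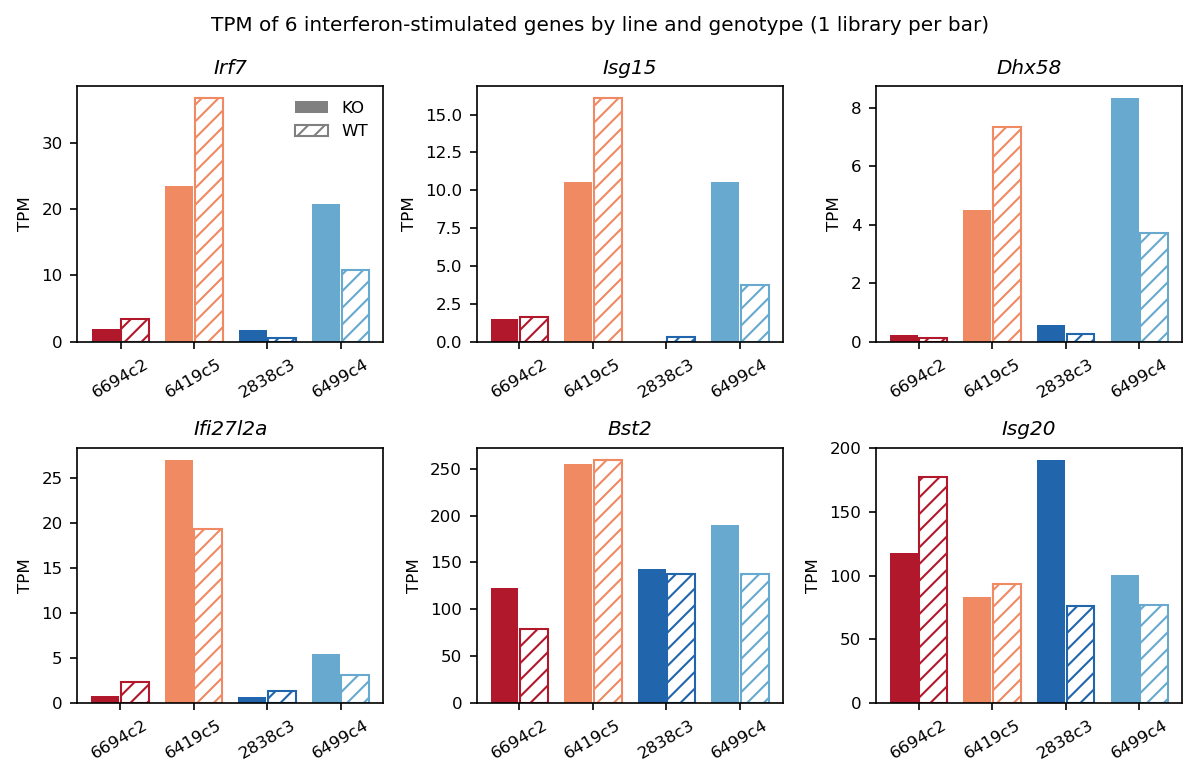
TPM of Irf7, Isg15, Dhx58, Ifi27l2a, Bst2 and Isg20 in each library, with filled bars for KO left of hatched bars for WT and 1 library per bar. Irf7, Isg15 and Dhx58 are high in 6419c5 and 6499c4, and Ifi27l2a is high in 6419c5. Bst2 is at least 79.2 TPM everywhere, and Isg20 is highest in the 2838c3 KO library at 191 TPM.

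The most abundant members were present in every library. Bst2 (tetherin, ENSMUSG00000046718, chr8:71986895-71990114, minus strand), which holds budding virus at the cell surface, was at 123, 255, 143 and 190 TPM in KO libraries and at 79.2, 260, 137 and 138 TPM in WT libraries (adjusted p = 0.0305, limma F-test). Isg20, an RNA exonuclease, was at 118, 83.1, 191 and 100.5 TPM in KO libraries and at 177, 93.5, 75.9 and 77.1 TPM in WT libraries, with no call (adjusted p = 0.444, limma F-test). Oasl1, an OAS-like protein that in mice represses Irf7 translation, was at 37.3, 44.7, 36.5 and 47.4 TPM in KO libraries and at 42.4, 47.9, 35.2 and 39.5 TPM in WT libraries (adjusted p = 0.475, limma F-test). Oasl1 spanned the narrowest range of the 3 and stood apart in no line beyond a small deficit in 2838c3. Ifi35, a binder of the protein Nmi, was at 21.7, 46.3, 14.8 and 35.3 TPM in KO libraries and at 14.3, 49.997, 15.5 and 29.3 TPM in WT libraries (adjusted p = 0.0131, limma F-test). Its exons overlap those of Vat1 on the opposite strand over 16.2% of its exon bases. The 6 members of highest mean were these 4 with Irf1 and Parp9. The 28 others summed to 185 and 262 TPM in the KO and WT libraries of 6419c5, 115 and 74.7 TPM in 6499c4, 28.9 and 58.2 TPM in 6694c2 and 49.6 and 43.3 TPM in 2838c3.

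The genes of ADP-ribosylation were highest in 6419c5. Parp9, a PARP family protein that partners DTX3L, was at 6.01, 21.7, 8.98 and 12.9 TPM in KO libraries and at 13.5, 34.5, 13.3 and 13.9 TPM in WT libraries (adjusted p = 0.0329, limma F-test). Dtx3l, its ubiquitin ligase partner, was at 4.67, 16.6, 8.39 and 9.14 TPM in KO libraries and at 9.45, 27.4, 11.3 and 10.8 TPM in WT libraries (adjusted p = 0.0242, limma F-test). Parp14, a mono-ADP-ribosyltransferase, was at 0.856, 8.08, 1.08 and 2.67 TPM in KO libraries and at 1.34, 14.7, 1.15 and 1.77 TPM in WT libraries (adjusted p = 0.00801, limma F-test). All 3 stood above the other lines there in both genotypes. Parp9 and Dtx3l stand head to head on chromosome 16 and overlap by 458 exon bases on opposite strands, so part of their reads may be shared. Gbp2, a guanylate-binding GTPase, was at 0.246, 2.82, 0.280 and 0.834 TPM in KO libraries and at 1.27, 4.18, 0.578 and 1.45 TPM in WT libraries. No p is given for Gbp2, since it needed both libraries of 6419c5, its highest line, to pass the filter.

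The IFIT genes, whose proteins bind viral RNA, included 3 that were higher in both T-cell-poor lines than in the T-cell-rich lines. Ifit3 was at 1.57, 4.58, 0.359 and 0.190 TPM in KO libraries and at 4.87, 5.02, 0.463 and 0.227 TPM in WT libraries. Ifit2 was at 0.811, 9.20, 0.399 and 1.01 TPM in KO libraries and at 2.67, 9.94, 4.24 and 1.51 TPM in WT libraries (adjusted p = 0.0388, limma F-test over lines). Ifit3 was high in both T-cell-poor lines, whereas Ifit2 was high in 6419c5 alone. Ifit1 was at 0.700, 3.91, 0.177 and 0.208 TPM in KO libraries and at 1.54, 6.48, 0.0913 and 0.119 TPM in WT libraries, below the filter. Ifit3b was at 0.575, 2.13, 0.0783 and 0.166 TPM in KO libraries and at 1.67, 3.40, 0.121 and 0 TPM in WT libraries, also below the filter. The Ifit3 and Ifit3b transcripts are 97.5% identical and share 15.3% of their 150-base stretches, so reads could be split between them.

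Active OAS enzymes make the second messenger that activates RNase L. Oasl2 was at 0.319, 4.32, 0.221 and 3.62 TPM in KO libraries and at 0.607, 7.57, 0.127 and 1.30 TPM in WT libraries. Oas1a was at 0.329, 4.47, 0.0831 and 0.0586 TPM in KO libraries and at 0.604, 10.8, 0.0429 and 0 TPM in WT libraries. Oas3 was at 0.225, 1.16, 0.0222 and 0.0312 TPM in KO libraries and at 0.408, 1.76, 0.0343 and 0.0112 TPM in WT libraries. Oas1a and Oas3 did not pass the filter and exceeded 1 TPM in 6419c5 alone. Oas1a shares 31.2% of its 150-base stretches with Oas1g, which stayed at or below 0.308 TPM in all libraries. Among the 13 members below the filter, 12 had their highest line mean in 6419c5, against 34.3% of all genes with any TPM. Of the 13, Mx1, Oas1g, Rsad2, Cmpk2 and Ifi44 stayed under 1 TPM everywhere, where differences cannot be weighed against counting error. Fitted without the filter, over 27103 genes with any TPM, the line F-test called 12 of 34 members and 6.47% of all genes, among them Ifi44, Oas2, Oas3, Oas1a, Ifit1 and Usp18 from below the filter.

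Knockout of C1galt1c1 gave no member that passed the test across lines. With cell line as a block, 0 of 12900 genes (0.0%) and 0 of the 21 members tested had an adjusted p under 0.05 by limma, and 1137 genes had an unadjusted p under 0.05, made up of 111 higher in KO (0.86%) and 1026 lower (7.95%). The median gene was 0.15 lower on the log2 scale (median -0.15), and this split depended on the scaling: median-ratio scaling gave 297 higher and 349 lower, and quantile normalization 322 and 333. Estimates were higher for 9 of 21 members and lower for 12, against 23.9% and 76.1% of all genes, and the member median was -0.12. The exact sign-flip test over 4 lines cannot go below p = 0.125.

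The 5 members of smallest p in this comparison are given here, a choice that favours genes with the same direction in every line. Of them, 4 were lower in KO in all 4 lines. Dtx3l, whose values stand above, was lower in each KO library than in its WT parent, with a log2 difference of -0.55 ± 0.17 (SE, n = 4 lines; unadjusted p = 0.0159, adjusted p = 0.556 by limma; exact p = 0.125). Parp9 gave -0.58 ± 0.19 (adjusted p = 0.556 by limma), and relative to the median gene these 2 estimates were -0.40 and -0.43. Ifit2 gave -0.84 ± 0.32 (adjusted p = 0.561, limma). Gbp2 gave -0.50 ± 0.19, a description with no p given, since WT libraries did most to carry it past the filter. Bst2 gave 0.28 ± 0.16 (adjusted p = 0.586, limma) and was higher in KO in 3 of 4 lines. Without 6694c2 and 6419c5, whose KO libraries hold the high share of unnamed RNA, the estimates were -0.31 for Dtx3l and Parp9, -1.11 for Ifit2 and -0.36 for Gbp2. Without 2838c3 that of Ifit2 was -0.48, and a pseudocount of 0.1 gave -1.34 for Ifit2 and -1.02 for Gbp2. Bst2 gave 0.16 without 6694c2 and 0.44 under median-ratio scaling. Ifit2, Ifit3, Parp9, Dtx3l and Gbp2 were lower in KO in all 4 lines, as were 18.5% of all genes kept, and no member was higher in all 4, against 1.88%.

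The direction of the KO difference depended on the line. In 6694c2, 19 of the 21 members at 1 TPM or more in either library were lower in KO (71.0% of all genes), with a member median of -0.59 on the log2 scale against -0.24 over all genes. In 6419c5, 28 of 29 were lower (68.8% of all genes), with a median of -0.49 against -0.17. In 2838c3, 7 of 15 were higher and 8 lower, with a median of -0.05 against -0.08. In 6499c4, 18 of 22 were higher in KO (37.0% of all genes), with a median of 0.42 against -0.11. Members past a log2 difference of 1 were Ifit2, Ifit3, Irf9 and Parp9, lower in 6694c2 (6.94% of all genes), Oas1a, lower in 6419c5 (3.7%), and Ifit2, lower in 2838c3 (8.6%). Isg20 and Stat2 were past it and higher in 2838c3 (6.13%), and Isg15 and Oasl2 higher in 6499c4 (1.67%). No member was past it and higher in 6694c2 (2.32%) or 6419c5 (2.08%), or lower in 6499c4 (2.44%). Each line has 1 library per genotype, so these counts have no replicate check. The lines with mostly lower members are those whose KO libraries hold the high share of unnamed RNA, and its part in these counts was not tested.

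**Figure D4:**
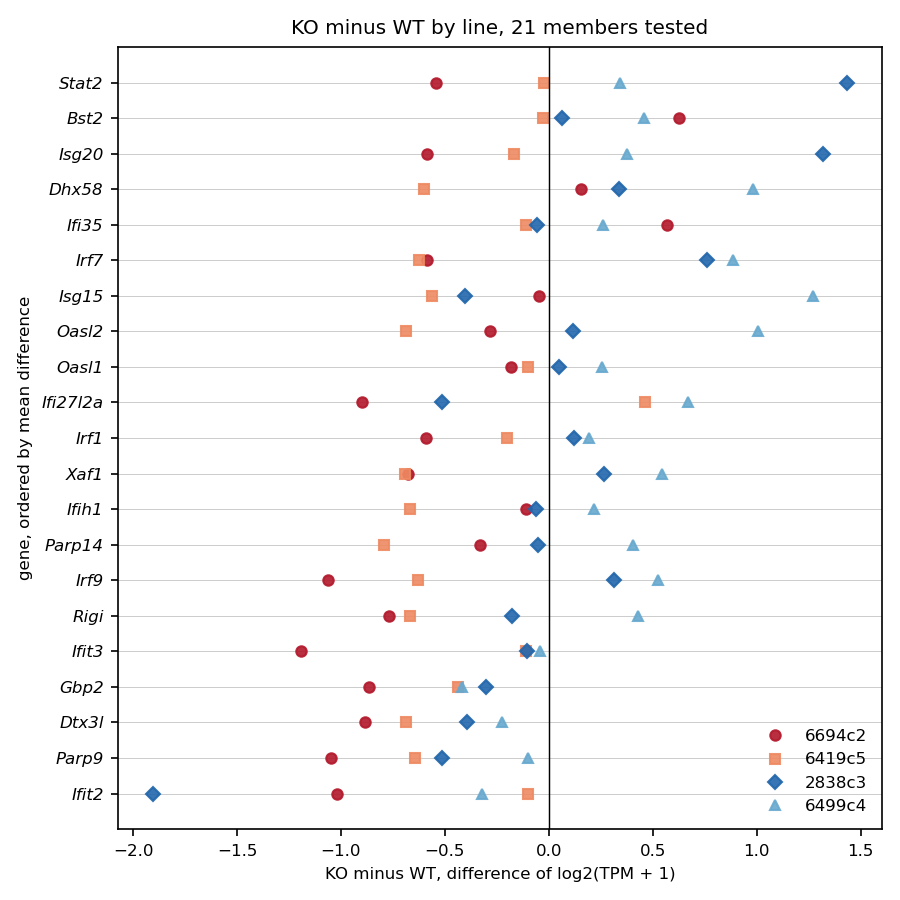
KO minus WT difference of log2(TPM + 1) for the 21 members tested, ordered by the mean over lines, with 1 point per line. Ifit2, Ifit3, Parp9, Dtx3l and Gbp2 lie left of 0 in all 4 lines, and points of 6499c4 lie mostly right of 0.

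Set against each other, the KO differences of the T-cell-poor lines were below those of the T-cell-rich lines for 18 of 21 members and above for 3, against 56.5% and 43.5% of all genes. By limma on the 4 differences, 2 lines against 2, 1 of 12900 genes was called (0.00775%), a gene without a name in the annotation, and no member. At an unadjusted p under 0.05, 5 members were lower (7.84% of all genes) and none higher (3.83%). Irf7 differed by -0.59 and -0.62 on the log2 scale in 6694c2 and 6419c5 and by 0.76 and 0.89 in 2838c3 and 6499c4, a difference between classes of -1.43 ± 0.30 (SE, 95% interval -2.16 to -0.70, adjusted p = 0.346 by limma). Irf9 differed by -1.06 and -0.63 in the T-cell-poor lines and by 0.31 and 0.52 in the T-cell-rich lines, a difference of -1.26 ± 0.31 (adjusted p = 0.368, limma). Xaf1 gave -0.68 and -0.69 against 0.26 and 0.55, a difference of -1.09 ± 0.34 (adjusted p = 0.386, limma). These 3 genes changed sign between the classes, and so did Isg20 (difference -1.23 ± 0.38, adjusted p = 0.385, limma) and Stat2 (difference -1.17 ± 0.44, adjusted p = 0.404, limma). Without 2838c3, Isg20 gave -0.75 and Stat2 -0.63, and a pseudocount of 0.1 gave -1.64 for Xaf1. None of the 5 passed the adjusted threshold, and the exact 2 against 2 test cannot go below p = 0.333. Opposite directions in the classes were seen for 8 of 21 members (38.1%) and 17.8% of all genes kept.

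The high share of unnamed RNA was found in the KO libraries of both T-cell-poor lines and in no other library, so it cannot be told apart from the class contrast. With unnamed identifiers and small RNA removed and the rest rescaled, Irf7 differed by -1.30, Irf9 by -1.12, Isg20 by -1.07, Xaf1 by -0.997 and Stat2 by -1.03. The split of all genes by unadjusted p, 494 higher and 1011 lower, became 862 and 651 with that removal and 664 and 837 under median-ratio scaling.

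Between the line classes themselves, no gene passed the test. By limma on line means, T-cell-poor minus T-cell-rich, 0 of 12900 genes (0.0%) were called, while an unadjusted p under 0.05 was reached by 159 genes higher (1.23%) and 100 lower (0.775%). Estimates were higher for 17 of 21 members and lower for 4, against 46.3% and 53.7% of all genes. The difference of Ifit3 was 1.86 ± 0.38 (SE, n = 2 lines against 2), and 3.25 with a pseudocount of 0.1. Since Ifit3 passed the filter only through the T-cell-poor libraries, this value is a description and no p is given for it. Ifit2 (1.08 ± 0.73), Gbp2 (0.66 ± 0.58), Parp14 (0.94 ± 0.88) and Ifi27l2a (1.24 ± 1.17) had wider errors. Without 6694c2 these 4 gave 2.099, 1.36, 2.20 and 2.90, and without 6419c5 the last 3 gave -0.05, -0.32 and -0.41. Without 6419c5, Ifit3 gave 1.57 and Ifit2 0.06.

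Counted over libraries, 6 of 34 members had all 4 T-cell-poor libraries above all 4 T-cell-rich libraries, against 1.7% of all genes with any TPM, and none had them below, against 1.41%. The 6 were Ifit1, Ifit3, Ifit3b, Oas1a, Oas3 and Rsad2, and the libraries of a line are not independent of each other. Rsad2 (viperin) was at 0.0204, 0.123, 0 and 0 TPM in KO libraries and at 0.0351, 0.119, 0.0187 and 0 TPM in WT libraries, levels too low to read. In TPM the gap was widest for Ifit3, where the lowest T-cell-poor library stood at 1.57 TPM and the highest T-cell-rich library at 0.463 TPM. Irf7, Isg15, Dhx58 and Xaf1 did not follow the classes, since 6499c4 was high and 6694c2 low.

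**Figure D5:**
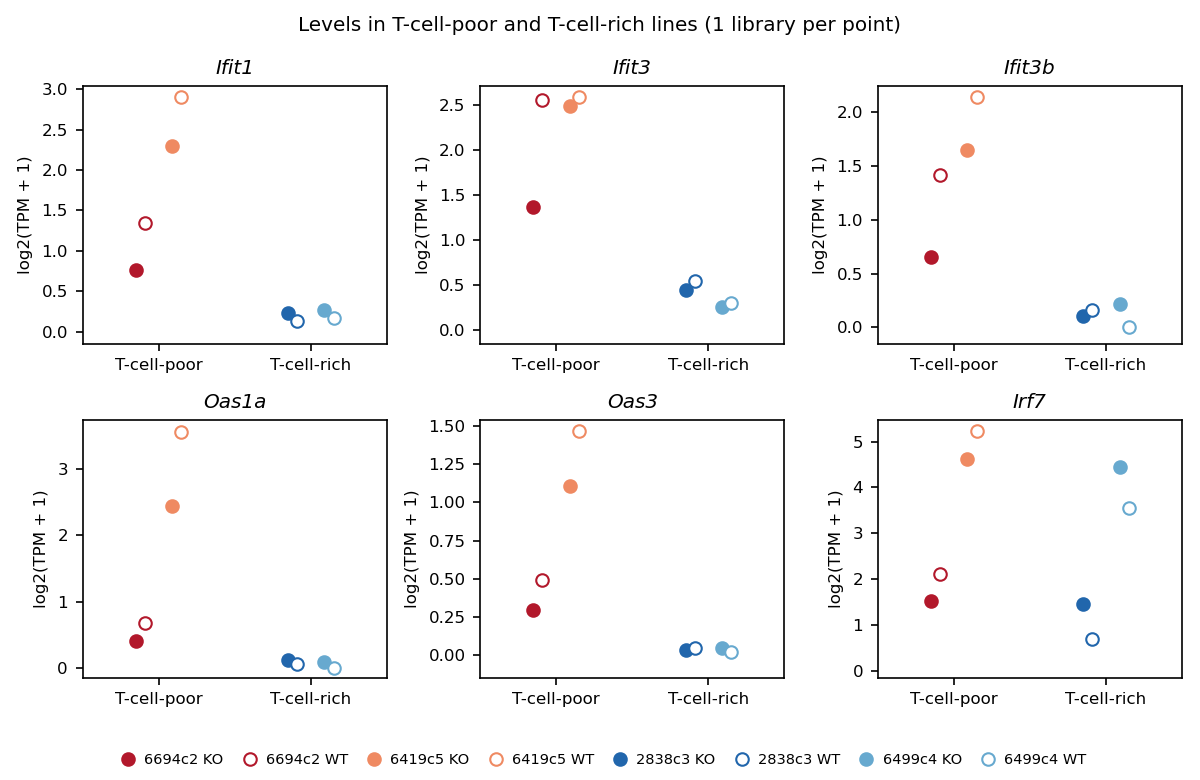
Level as log2(TPM + 1) in T-cell-poor and T-cell-rich lines, 1 point per library, filled for KO and open for WT. Ifit1, Ifit3, Ifit3b, Oas1a and Oas3 do not overlap between the classes. Irf7 does overlap, with higher levels in 6419c5 and 6499c4 than in 6694c2 and 2838c3.

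Transcripts of the ligands were mostly listed at 0. Of 21 interferon genes, 17 were listed at 0 in all libraries, and only Ifne, an interferon of epithelia, reached 1 TPM. It was at 0, 1.07, 0 and 1.16 TPM in KO libraries and at 0, 0.621, 0 and 0.477 TPM in WT libraries, so that it was listed above 0 in the lines where Irf7 was high. Ifnb1 was listed at 0 except for 0.294 TPM in the 6499c4 KO library. Which gene lengths were used for these TPM was not given in the sources used here.

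Receptor chains were present in all lines. Ifnar1 was at 23.7, 41.2, 38.1 and 28.2 TPM in KO libraries and at 30.7, 57.5, 44.3 and 31.0 TPM in WT libraries. Ifnar2 was at 33.7, 43.1, 51.7 and 23.8 TPM in KO libraries and at 37.4, 54.5, 48.9 and 22.7 TPM in WT libraries. The lowest Ifnar2 values were those of 6499c4, the line with the second highest level of most members. The limma F-test among lines called 4 of 10 receptor and kinase genes, against 16.9% of all genes. Among those called were Ifnar2, Il10rb and Ifngr2, with adjusted p from 0.0213 to 0.0301 by that test. No receptor or kinase gene of the list was called between genotypes or classes.

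Genes of nucleic acid sensing differed among lines in 4 of 8 genes tested, Aim2, Tlr3, Ticam1 and Sting1, where 16.9% of all genes did. Sting1, the adaptor of cytosolic DNA sensing, was at 5.61, 22.2, 0.884 and 106 TPM in KO libraries and at 14.4, 25.2, 0.842 and 139 TPM in WT libraries (adjusted p = 0.000459, limma F-test). It was highest in 6499c4 and near 1 TPM in 2838c3. Aim2, a receptor of cytosolic DNA, was at 1.69, 17.5, 3.33 and 7.19 TPM in KO libraries and at 1.34, 8.68, 0.785 and 0.860 TPM in WT libraries. It was higher in KO in all 4 lines, as were 1.88% of genes kept. Its difference was 1.14 ± 0.31 on the log2 scale (unadjusted p = 0.00875 and adjusted p = 0.556 by limma, exact sign-flip p = 0.125). Tlr3, a receptor of double-stranded RNA, was lower in KO in all 4 lines, as were 18.5% of genes kept. Its difference was -0.62 ± 0.16 (adjusted p = 0.556, limma), with 1.95, 9.87, 2.63 and 4.28 TPM in KO libraries and 4.24, 14.9, 3.94 and 7.33 TPM in WT libraries.

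Of 59 interferon-stimulated genes outside the list of 34, 40 passed the filter, and the line F-test called 9, Ifi204, Oas1c, Ifitm3, Ifi47, Slfn2, Cnp, Lgals3bp, Ifi27 and Rtp4, against 16.9% of all genes. Oas1c and Rtp4, like Gbp9 below, passed the filter only through both libraries of the 2 lines where they were high. Rtp4, a chaperone of receptors and restrictor of flaviviruses, was at 0.332, 11.6, 0.147 and 5.597 TPM in KO libraries and at 0.320, 25.4, 0.265 and 2.12 TPM in WT libraries, the order of lines seen for Irf7. Ifitm3, a block to viral entry, was at 9.13, 36.0, 1.501 and 125 TPM in KO libraries and at 14.0, 64.1, 0.953 and 129 TPM in WT libraries (adjusted p = 0.000397, limma F-test). Its highest line was 6499c4 and not 6419c5. None of the 59 was called between KO and WT, where 3 estimates were higher and 37 lower, against 76.1% of all genes lower, a split that depended on scaling. For the KO difference between classes 32 of 40 estimates were lower, against 56.5% of all genes, with Trim21, a cytosolic antibody receptor, at -1.23 ± 0.38 (adjusted p = 0.385, limma).

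Among 22 interferon-gamma-type GTPases and chemokines, 6 passed the filter and 5 differed among lines, Gbp9, Irgm1, Igtp, Irgm2 and Cd274, against 16.9% of all genes. Cd274, which encodes the checkpoint ligand PD-L1, was at 0.977, 14.6, 4.82 and 7.65 TPM in KO libraries and at 0.775, 25.1, 2.54 and 8.50 TPM in WT libraries (adjusted p = 0.00489, limma F-test). It was lowest in 6694c2 and highest in 6419c5 in both genotypes. Cxcl10, a chemokine that draws T cells, was at 6.05, 3.27, 0.104 and 1.81 TPM in KO libraries and at 2.39, 1.33, 1.26 and 2.1097 TPM in WT libraries. Its KO difference ran the other way from that of Irf7, higher in the T-cell-poor lines by 1.55 ± 0.44 (unadjusted p = 0.0113, adjusted p = 0.371 by limma). Of 10 negative regulators, 1 differed among lines, against 16.9% of all genes. This was Socs1, an inhibitor of JAK kinases, at 5.58, 12.9, 1.86 and 8.06 TPM in KO libraries and at 5.91, 10.6, 2.78 and 6.88 TPM in WT libraries (adjusted p = 0.0126, limma F-test). Socs1 was highest in 6419c5 and lowest in 2838c3 in both genotypes.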

How the data were processed

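Polyadenylated RNA of 4 mouse tumour lines was sequenced as 2 libraries per line, KO and WT. The deposited values are TPM for 49315 gene identifiers; per the submitters' processing notes which give no roles, the build was mm39 and the tools were STAR 2.7.11b, cutadapt 5.1, DESeq2 2.11.40.8 and featureCounts 2.1.1. How reads became TPM, and whether strand was used, was not given in the sources used here; the design text calls the libraries stranded and the kit named in the labels is not described as directional. TPM keep no depth, so no counting interval was given. Names were matched to GENCODE M39 on GRCm39 (45505 identifiers matched). Genes with TPM of at least 1 in at least 4 libraries (12900) were fitted as log2(TPM + 1), a scale that understates changes of low genes, with limma 3.58.1 in R 4.3.3 and a variance trend, a step tested on simulated data. KO and WT cultures of a line are isogenic, per the design text, so line was a block; same-line libraries deviated together (r of 0.66, 0.75, 0.42 and 0.79 in 6694c2, 6419c5, 2838c3 and 6499c4). The labels do not say that cultures were repeated. For the genotype and class comparisons, p-values thus measure the spread of differences or means between lines. For the line F-test they are set against the spread within lines, between KO and WT libraries, that is left after genotype. Promoters were read from GRCm39 and not from the supplied RefSeq windows, which are on another build. Members, gene lists, classes and tests were chosen with earlier results of these data known. All members are accounted for; named are those called by a fit or among the 5 smallest p of it, the 6 of highest mean TPM, the STAT and IRF factors, members whose classes do not overlap, and, of each pathway list, called members or the 2 of smallest p. Some listed genes are not reported here. Removal of structural RNA and of lines 6694c2 and 6419c5 was added after seeing the data.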

Additional observations from a re-analysis of the deposited data

Results flagged for a closer look

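In the WT libraries, 6419c5 stood apart from the 3 other lines for Rigi (13.3 TPM), Parp9 (34.5 TPM), Parp14 (14.7 TPM) and Dtx3l (27.4 TPM), each by a gap above Dixon's 95% critical value. The flags do not take in every member whose gap in these WT libraries was above that value. Ifi27l2a was at 19.4 TPM in 6419c5 and at most 3.08 TPM in the other lines, and Oasl2 at 7.57 and at most 1.30 TPM. Both gaps were above the critical value without a flag. Chance alone marks about 1 in 20 groups in this way, and Parp9 and Dtx3l share exon bases.

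For 8 members the KO minus WT difference had opposite signs in the T-cell-poor and the T-cell-rich lines, given here as the class difference on the log2 scale: Irf7 -1.43, Irf9 -1.26, Isg20 -1.23, Stat2 -1.17, Xaf1 -1.09, Oasl2 -1.05, Irf1 -0.55 and Oasl1 -0.29. By limma none of the 8 passed an adjusted p of 0.05, the smallest being 0.346 for Irf7.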

How the results depend on the processing

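For KO minus WT, 0 genes were called under every alternative run, and leaving the cell line out as a replicate block also gave 0, with 210 genes at an unadjusted p under 0.05 against 1137 with the block. For T-cell-poor minus T-cell-rich lines 0 genes were called under every alternative run. The KO difference between classes called 1 gene, 0 with a pseudocount of 0.1, 0 with no filter, 0 with a TPM of at least 5, 0 with structural RNA removed, 8 with quantile normalization and 0 to 2 with 1 line left out; no member was called in any of these. The line F-test called 2178 genes, 871 to 3708 with 1 line left out and 944 without 6694c2 and 6419c5. It called 15 members, 5 of 10 tested with a TPM of at least 5, 4 without 6694c2 and 6419c5, and 4 to 17 with 1 line left out. For T-cell-poor minus T-cell-rich, leaving out 1 line gave -0.05 to 1.36 for Gbp2, -0.32 to 2.20 for Parp14 and -0.41 to 2.90 for Ifi27l2a, and without 6419c5 these were reversed, at -0.046, -0.32 and -0.41. Alternatives were run for the 5 members of smallest p in each comparison across genotypes or classes, and their other log2 differences kept their sign. In the line F-test, single members crossed to an adjusted p above 0.05 in 42 cases and to one below it in 4, while 216 stayed on their side.

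TPM hold no depth, so differences between members below 1 TPM cannot be weighed against counting error. Each class has 2 lines, and each line 1 library per genotype, so a class difference cannot be told apart from one of single lines. The unnamed RNA in the KO libraries of both T-cell-poor lines cannot be told apart from the class contrast.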

Other observations

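Ifne lies in the interferon gene cluster of chromosome 4, near Mtap and Cdkn2a, which were looked up after the Ifne values had been seen. Cdkn2a, a cell cycle inhibitor gene often deleted in pancreatic cancer, was at 5.21, 1088, 536 and 1507 TPM in the KO libraries of 6694c2, 6419c5, 2838c3 and 6499c4, and at 5.76, 1212, 520 and 1237 TPM in the WT libraries. Mtap, an enzyme of methionine salvage, was at 62.3, 139, 246 and 113 TPM in KO libraries and at 86.4, 121, 229 and 138 TPM in WT libraries. Cdkn2a was low in 6694c2 alone, while Ifne was listed at 0 in both 6694c2 and 2838c3.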
